A study of Mus musculus with 29 samples.

Results

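The genes described here are 35 genes of the mouse heart whose products make or remove reactive oxygen species, with 2 regulators of the antioxidant genes among them. They were chosen by symbol from the deposited table of expression values, and all 35 were found among its 29955 genes. The 35 are 9 oxidase genes, 5 genes of mitochondrial antioxidant enzymes, 13 of cytosolic ones, 6 of antioxidant enzymes that work in other places, and the 2 regulators. Values are in FPKM, fragments per kilobase of transcript scaled to the mapped fragments of the library. Errors after ± are SE for log2 fold changes and SD for levels. A mean of 0.5 FPKM over all libraries was needed for the test, which 12759 genes and 33 of the 35 reached; Nox4 and Duox1 did not and are given by their values.

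RNA was sequenced from hearts of male C57BL6 mice (C57BL/6J in the study's methods) that were 3 months old at the start. For 5 weeks the HF mice drank water with 0.3 mg/ml L-NAME, which blocks nitric oxide synthases, and 1% NaCl, and after the first week an osmotic pump gave angiotensin II at 0.7 mg/kg/day; all were then withdrawn. The libraries used are 2 from HF week 3 and 3 from HF week 5, taken under these agents, then 2, 2, 3, 2 and 5 from Recovery weeks 7, 9, 11, 13 and 19, counted from the start of induction, and 5 from Control week 19, of mice without the agents. The labels name whole hearts or ventricles and the study's methods the frozen apical part. Control week 19 has the age of Recovery week 19 only. In every comparison of HF with either of them, the state of the heart and the age of the mice cannot be told apart. Age also differs between Recovery weeks 7 to 13 and Control week 19. The agents were being given when the HF libraries were taken, but not for the recovery or control libraries. Between these, heart failure and a direct action of the agents cannot be told apart either. The week 5 controls, of the age of HF week 5, were left out because their columns outnumber their labelled samples. Libraries are numbered within their group without a link to a labelled mouse, and p-values measure the spread between these libraries.

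NADPH oxidases pass electrons from NADPH to oxygen and so form superoxide or hydrogen peroxide; in phagocytes the enzyme is built from a membrane core, Cybb and Cyba, and cytosolic subunits such as Ncf1 and Ncf4, while Nox4 works with Cyba in fibroblasts, vessel cells and cardiomyocytes. Angiotensin II is known to activate these oxidases in vessels and heart. Superoxide dismutases turn superoxide into hydrogen peroxide, which catalase, the glutathione peroxidases and the peroxiredoxins remove, the last of these with electrons from thioredoxin. Cardiomyocytes are rich in mitochondria, which hold a set of these enzymes of their own (Sod2, Prdx3, Txn2, Txnrd2), and NRF2, encoded by Nfe2l2 and held back by Keap1, switches on many of the cytosolic ones.

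Library 1 of HF week 5 and both libraries of HF week 3 stood apart in an atrial gene. Myl7, the atrial myosin light chain, was listed at 18388 FPKM in the first of these and at 1805 and 5773 FPKM in the other 2, against 152 and 6.16 FPKM in libraries 2 and 3 of HF week 5 and at most 1.12 FPKM in the control libraries, although the methods name the apex. The fat cell gene Adipoq was at 10.5, 15.6 and 0.0516 FPKM in the HF week 5 libraries, at 6.09 and 5.76 FPKM at HF week 3 and at no more than 0.0960 FPKM in the controls. Library 1 of HF week 3 had 12816 genes above 0, where the other 23 libraries had 16339 to 18091, and gave no steps from which a depth could be read; the other 23 had relative depths of 0.729 to 1.40 times that of control library 1. The 10 highest genes took 27.9% to 37.4% of the summed FPKM at Recovery weeks 7 to 13, against 14.6% to 18.8% at HF week 5 and in both week 19 groups and 19.8% and 37.5% in libraries 1 and 2 of HF week 3. The parts that atrial tissue, fat or library differences played in the results were not tested. The members' calls are given with and without library 1 of HF week 5, and with it and both HF week 3 libraries left out. For HF week 3 they are given without either of its libraries. A fit without the HF week 3 libraries alone was run, and its calls of members are not given. The fits without library 1 of HF week 5 keep library 2, with Adipoq at 15.6 FPKM and Myl7 at 152 FPKM. They are thus not free of fat or atrial RNA.

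At HF week 5, 14 of the 33 members tested differed from Control week 19. Ncf4, Maoa, Gpx1, Gpx3, Gpx7 and Prdx4 were higher, and Maob, Sod2, Cat, Prdx3, Txn2, Nqo1, Gclm and Nfe2l2 were lower (limma on log2(FPKM + 0.5), called at an adjusted p under 0.05 over all 12759 genes). These 6 and 8 members stand beside 11.6% of all genes called higher and 12.4% called lower (8.75% and 14.6% with median centring). The median log2 fold change was -0.02 over the members and 0.04 over all genes. The other 19 members tested were not called. By class, 2 of 7 oxidase genes were higher and 1 lower, 0 of 5 mitochondrial antioxidant genes were higher and 3 lower, 1 of 13 cytosolic ones was higher and 2 lower, and 3 of the 6 of other places were higher and 1 lower. In bulk tissue a gene's fall in fewer cells of a type and less RNA per cell cannot be told apart, and neither can the reverse.

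Without library 1 of HF week 5, 1 member was called higher (Gpx7) and 4 lower (Maob, Sod2, Prdx3 and Nfe2l2). Of all genes, 4.21% were then called higher and 6.45% lower. In a fit that left out both HF week 3 libraries as well, 3 members were higher (Cybb, Gpx3 and Gpx7) and 6 lower (Maob, Sod2, Cat, Prdx3, Txnrd1 and Nfe2l2), beside 8.86% and 11.4% of all genes; this fit was added after the data were seen.

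**Figure D1:**
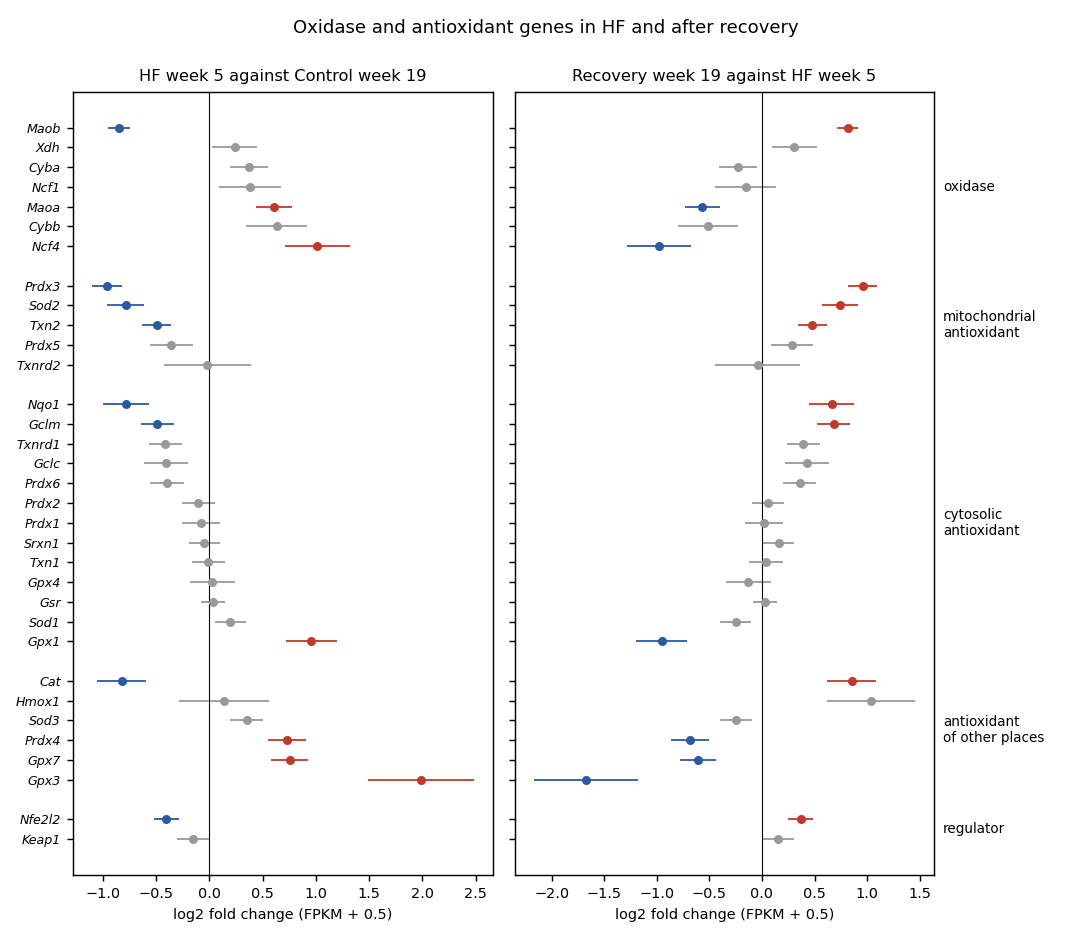
Log2 fold change (FPKM + 0.5) of each tested member at HF week 5 against Control week 19 (left) and at Recovery week 19 against HF week 5 (right), with bars of 1 SE. Red points were called higher, blue points lower and grey points not called; the 14 called members on the left are called on the right with the opposite sign, and both comparisons share the 3 HF week 5 libraries.

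Of the 4 phagocyte subunits among the oxidase genes, Ncf4 was called at HF week 5 and Cybb, Cyba and Ncf1 were not. Ncf4, a regulatory subunit, was at 2.19, 0.974, 1.08, 1.60 and 2.65 FPKM in the control libraries and at 6.37, 2.22 and 3.63 FPKM at HF week 5. The groups overlapped through HF week 5 library 2, and the log2 fold change of 1.01 ± 0.30 was called (adjusted p = 0.0208), but fell to 0.67 (adjusted p = 0.189) without library 1. Cybb, the catalytic subunit, was at 1.84, 1.40 and 1.84 FPKM at HF week 5 and at 1.11, 0.890, 0.776, 0.595 and 1.29 FPKM in the controls. The groups of Cybb did not overlap, and its log2 fold change was 0.63 ± 0.28 (adjusted p = 0.113). Without library 1 it was 0.58 (adjusted p = 0.285), and in the fit without library 1 and the HF week 3 libraries the same 0.58 was called (adjusted p = 0.0425). Cyba, the membrane partner of Cybb and Nox4 and by far the most abundant of these subunits, had 109.7, 115, 90.2, 93.3 and 135 FPKM in the controls and 138, 129 and 151 FPKM at HF week 5. Its log2 fold change of 0.37 ± 0.18 was not called (adjusted p = 0.144), and one control library lay inside the HF range. Ncf1, the organiser subunit, was at 2.08, 2.16, 1.88, 2.16 and 2.70 FPKM and then 5.002, 2.09 and 2.50 FPKM, so that only library 1 of HF week 5 exceeded the controls (log2 fold change 0.38 ± 0.29 (adjusted p = 0.366)).

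These subunits are also made by macrophages and neutrophils, and markers of both cell types are given beside them. The summed level of 13 macrophage markers was 332 to 542 FPKM in the control libraries, 722, 388 and 552 FPKM at HF week 5, 918 and 599 FPKM at HF week 3, and 702 to 936 FPKM at Recovery week 13, where Cybb reached 1.78 and 2.29 FPKM and Cyba 173 and 175 FPKM. At HF week 5, 0 of the 13 macrophage markers were called. Of 9 neutrophil markers summed, the controls held 4.93 to 38.3 FPKM and HF week 5 68.1, 13.2 and 9.79 FPKM, with the neutrophil enzyme gene Mpo listed at 0 in all 24 libraries. The part of either cell type in the oxidase values was not tested.

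Nox4, a NADPH oxidase that forms hydrogen peroxide, was low throughout but separated HF from control. Its values were 0.0230, 0.159, 0.0736, 0.202 and 0.253 FPKM in the controls and 1.01, 0.619 and 0.874 FPKM at HF week 5. Every HF library lay above every control library, a difference of 1.06 on the log2(FPKM + 0.5) scale (exact permutation test, two-sided p = 0.0357, the smallest that 3 against 5 libraries allow). With no filter on low values, limma over 22107 genes gave Nox4 an adjusted p of 0.00653. At Recovery week 19 Nox4 was at 0.203, 0.156, 0.167, 0.198 and 0.316 FPKM, again below every HF week 5 library, by 0.91 on the log2 scale (exact permutation test, two-sided p = 0.0357). At Recovery week 11 it was at 0.177, 0.952 and 1.14 FPKM, and 2 of those 3 libraries were as high as HF week 5. The 10 fibroblast markers summed to 263 to 375 FPKM in the controls, 721, 373 and 626 FPKM at HF week 5 and 425, 504 and 694 FPKM at Recovery week 11, and 6 of the 10 were called higher at HF week 5. The endothelial markers summed to 338 to 420 FPKM, 683, 482 and 618 FPKM, and 372, 335 and 348 FPKM in the same groups. The smooth muscle markers summed to 161 to 196 FPKM, 217, 298 and 207 FPKM, and 218, 182 and 128 FPKM. The part of these cells in the level of Nox4 was not tested. Duox1, a dual oxidase of epithelia, stayed between 0 and 0.310 FPKM in all 24 libraries (HF week 5 against control, exact permutation test, two-sided p = 0.321).

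The monoamine oxidases, which sit on the outer mitochondrial membrane and release hydrogen peroxide as they break down amines, went opposite ways. Maob was at 22.3, 21.98, 22.3, 25.04 and 20.8 FPKM in the controls and at 14.8, 11.97 and 10.3 FPKM at HF week 5. The groups were far apart, and the level was 1.80-fold lower in HF (log2 fold change -0.85 ± 0.10 (adjusted p = 4.32e-05); -0.98 (adjusted p = 1.79e-05) without library 1). Maoa, the form with a low level here, rose from 0.810, 0.868, 0.527, 0.829 and 1.001 FPKM to 1.995, 1.21 and 1.32 FPKM. Its groups did not overlap (log2 fold change 0.61 ± 0.17 (adjusted p = 0.0133)), but without library 1 the value was 0.44 (adjusted p = 0.121). At Recovery week 19 Maob was back at 19.3, 21.8, 23.1, 23.6 and 21.8 FPKM and Maoa at 0.750, 1.04, 0.742, 0.950 and 0.736 FPKM, within or next to their control ranges. Xdh, the xanthine dehydrogenase that can act as an oxidase, was at 29.7, 17.5 and 24.1 FPKM at HF week 5 against 16.2, 19.9, 17.7, 21.3 and 24.1 FPKM in the controls, a log2 fold change of 0.24 ± 0.21 (adjusted p = 0.445).

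**Figure D2:**
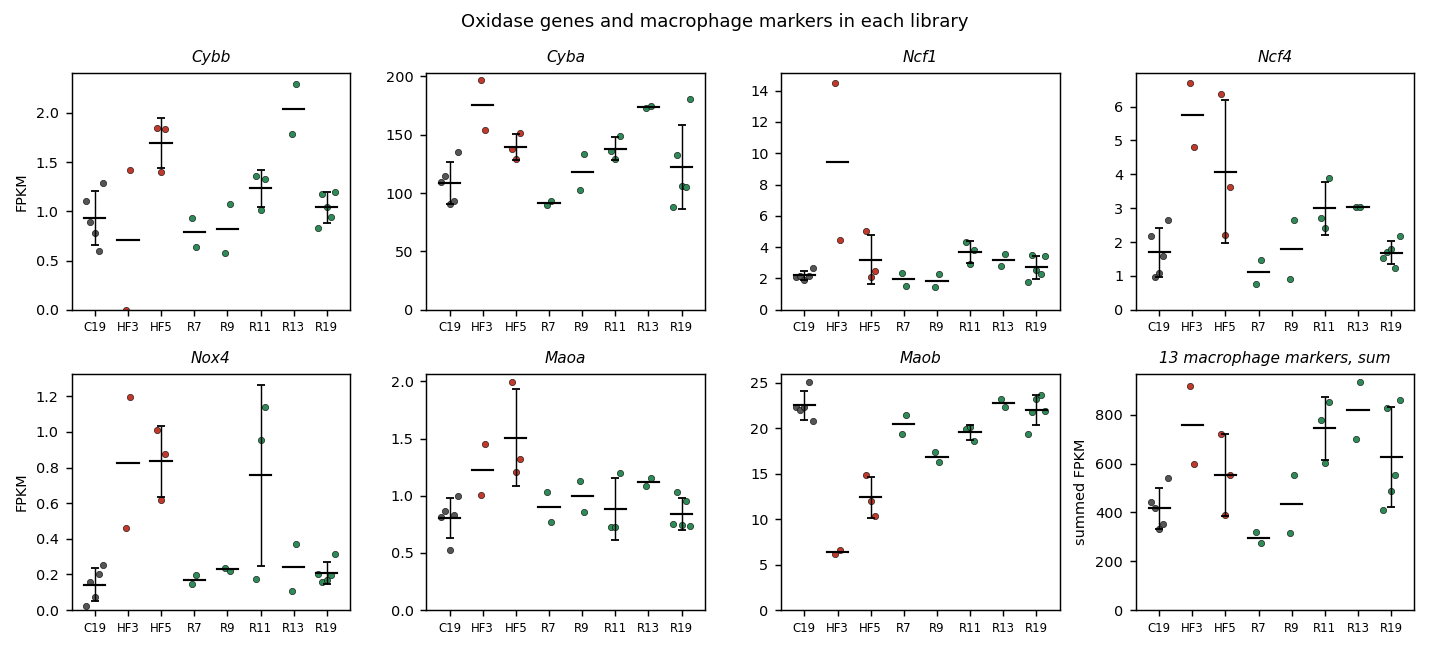
FPKM of 7 oxidase genes and the summed FPKM of 13 macrophage markers, one point per library, by group (C19, Control week 19; HF3 and HF5, HF weeks 3 and 5; R7 to R19, Recovery weeks 7 to 19); lines are group means and bars 1 SD, drawn for groups of 3 or more. Maob is low in all 5 HF libraries, and Nox4 is high in HF and in 2 of 3 libraries of Recovery week 11.

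The mitochondrial antioxidant genes fell or were not called. Sod2, the manganese superoxide dismutase of the matrix, was at 170.0, 167, 174, 168 and 141 FPKM in the controls and at 58.8, 126 and 114 FPKM at HF week 5. All HF values lay below all control values, the lowest of them in library 1, and the level was 1.72-fold lower (log2 fold change -0.79 ± 0.17 (adjusted p = 0.00317); -0.45 (adjusted p = 0.021) without library 1). Prdx3, the peroxiredoxin of the matrix, was nearly constant in the controls, at 207, 200.5, 205, 209 and 199.5 FPKM, and stood at 78.1, 125 and 117 FPKM at HF week 5. The fall was 1.94-fold (log2 fold change -0.96 ± 0.14 (adjusted p = 1.65e-04)) and remained called without library 1, at -0.75 (adjusted p = 0.00165). Txn2, the thioredoxin that feeds Prdx3, went from 265, 261, 256, 268 and 242 FPKM to 149.7, 216 and 189.7 FPKM. Its groups did not overlap, with a log2 fold change of -0.50 ± 0.14 (adjusted p = 0.0137) that became -0.35 (adjusted p = 0.123) without library 1.

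The other 2 mitochondrial genes were not called at HF week 5. Txnrd2, the reductase of Txn2, was at 32.7, 51.1 and 48.1 FPKM against 41.8, 45.3, 43.3, 41.00 and 47.6 FPKM in the controls, with library 1 below and libraries 2 and 3 above the control range. Prdx5, which also works in peroxisomes and cytosol, was at 641, 1276 and 1097 FPKM against 1283, 1338, 1228, 1254 and 1092 FPKM, low in library 1 alone (log2 fold change -0.36 ± 0.20 (adjusted p = 0.211)). The median log2 difference of the 5 genes from the control mean was -0.95, -0.26 and -0.45 in HF week 5 libraries 1 to 3 and between -0.09 and 0.04 in the control libraries. At Recovery week 19 it ranged from -0.35 to 0.24. Of 12 cardiomyocyte markers, Myh6, Myl2 and Actc1 were listed at 0 in all control libraries, and the other 9 were above 0 in every library. These 9 summed to 39859 to 48574 FPKM in the controls, 26103, 47505 and 42139.9 FPKM at HF week 5, 38382 and 30124 FPKM at HF week 3 and 31665 to 51913 FPKM at Recovery week 19. Of the 9, Pln, the regulator of the calcium pump, was called lower at HF week 5, at 395, 1243 and 1079 FPKM against 1418 to 1566 FPKM, and the other 8 were not called. Myl3 (3561 FPKM) and Mybpc3 (384 FPKM) were below their control ranges in library 1 alone. The part of these cells in the mitochondrial values was not tested. Sod2 then stood at 135, 164, 162, 152 and 187 FPKM, Prdx3 at 160.3, 229, 203, 189.9 and 249 FPKM and Txn2 at 208, 271, 247, 242 and 319 FPKM. All 3 were called higher than at HF week 5, by 0.75 ± 0.17 (adjusted p = 0.00434) for Sod2, 0.96 ± 0.14 (adjusted p = 1.62e-04) for Prdx3 and 0.48 ± 0.14 (adjusted p = 0.017) for Txn2 on the log2 scale, while Txnrd2 and Prdx5 were not. Without HF week 5 library 1 these values were 0.41 (adjusted p = 0.0306), 0.75 (adjusted p = 0.00149) and 0.33 (adjusted p = 0.137), so that the call of Txn2 was lost.

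**Figure D3:**
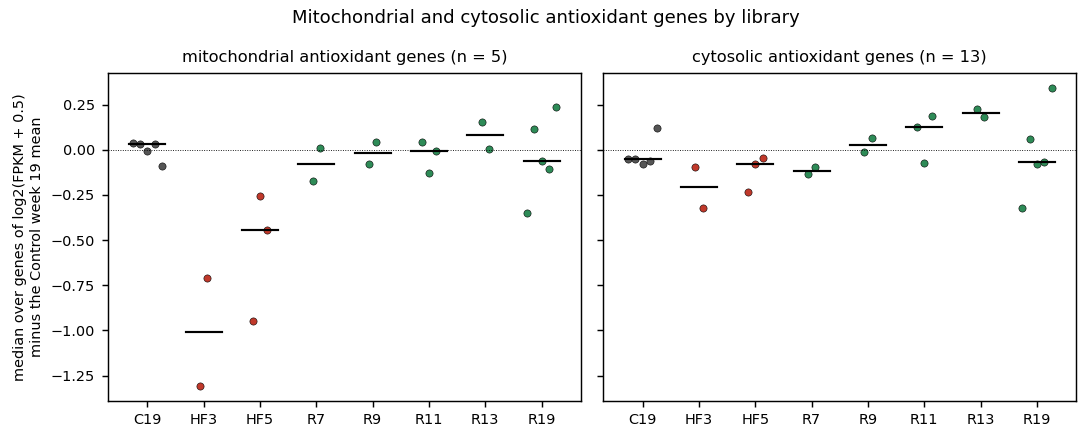
Median over the 5 mitochondrial (left) and the 13 cytosolic (right) antioxidant genes of log2(FPKM + 0.5) minus the Control week 19 mean, one point per library by group, with a line at the group median. The mitochondrial median is -0.26 or lower in all 5 HF libraries, whereas the cytosolic median lies between -0.32 and -0.04 there. Library 1 of Recovery week 19 is also low, at -0.35 for the mitochondrial and -0.32 for the cytosolic genes. Gpx4, counted as cytosolic, also has a mitochondrial form.

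The cytosolic antioxidant genes went both ways at HF week 5, with 1 of 13 called higher and 2 lower beside 11.6% and 12.4% of all genes, shares not far from those of the class (7.69% and 15.4%). Their log2 fold changes ran from -0.78 to 0.96 with a median of -0.08, beside -0.96 to -0.02 and a median of -0.50 for the mitochondrial ones; a difference between the classes was not tested. Gpx1, the main glutathione peroxidase, was the one that rose, from 93.1, 93.7, 75.6, 83.02 and 137 FPKM in the controls to 267, 144 and 161 FPKM at HF week 5. The groups did not overlap, and the log2 fold change was 0.96 ± 0.24 (adjusted p = 0.00763) with library 1 and 0.69 (adjusted p = 0.0859) without it. Nqo1, a quinone reductase and a standard target of NRF2, fell from 37.6, 35.8, 43.6, 37.7 and 42.8 FPKM to 12.8, 31.7 and 28.8 FPKM. Library 1 was the lowest by far, the log2 fold change was -0.78 ± 0.21 (adjusted p = 0.013), and without that library -0.38 (adjusted p = 0.145). Gclm, the modifier subunit of the enzyme that starts glutathione synthesis, went from 7.61, 6.72, 7.95, 7.84 and 5.60 FPKM to 4.43, 4.88 and 5.45 FPKM. The HF values lay just below the lowest control (log2 fold change -0.49 ± 0.16 (adjusted p = 0.0281); -0.42 (adjusted p = 0.138) without library 1).

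The other 10 cytosolic genes were not called at HF week 5, with log2 fold changes from -0.41 (Txnrd1, the cytosolic thioredoxin reductase) to 0.20 (Sod1, the copper and zinc superoxide dismutase). These include the 2 most abundant of the class in the controls, Gpx4 and Sod1. Gpx4, which reduces lipid peroxides and also has a mitochondrial form, was at 1314, 1892 and 2046 FPKM against 1602, 1644, 1491, 1608 and 2157 FPKM. Sod1 was at 931, 1154 and 1025 FPKM against 869, 917, 839, 854 and 1038 FPKM. The groups overlapped for Gpx4 and for Sod1. Prdx6 (log2 fold change -0.40 ± 0.16 (adjusted p = 0.0718)) was low in library 1, at 49.1, 91.2 and 87.1 FPKM against 95.01, 96.2, 100.1, 89.4 and 102 FPKM. Txnrd1 was at 10.9, 9.28 and 8.74 FPKM against 12.5, 12.1, 15.1, 13.2 and 12.2 FPKM, all HF values below all control values (adjusted p = 0.064). When library 1 and both HF week 3 libraries were left out of the fit, Txnrd1 was called lower, by 0.50 on the log2 scale (adjusted p = 0.00138). The catalytic subunit of glutathione synthesis Gclc, the reductase Gsr, the sulfiredoxin Srxn1, Prdx1, Prdx2 and Txn1 had adjusted p-values from 0.165 (Gclc) to 0.973 (Txn1). At Recovery week 19 Gpx1 was at 65.4, 103, 82.7, 85.3 and 159 FPKM, Nqo1 at 29.3, 33.3, 43.4, 34.6 and 42.4 FPKM and Gclm at 7.004, 10.2, 6.78, 8.39 and 8.92 FPKM, each called against HF week 5 in the direction of the control level. Without HF week 5 library 1 only Gclm of these 3 was called, at 0.61 (adjusted p = 0.0321) on the log2 scale, with -0.69 (adjusted p = 0.0814) for Gpx1 and 0.26 (adjusted p = 0.329) for Nqo1.

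Among the antioxidant enzymes of other places, Gpx3, Gpx7 and Prdx4 rose and Cat fell. Gpx3, the glutathione peroxidase that is secreted into plasma, had the largest log2 fold change of the 33 tested members with library 1 in the fit. It was at 200.2, 255, 189, 203 and 312 FPKM in the controls and at 3291, 462 and 486 FPKM at HF week 5. Library 1 was far above the other 2, yet these too exceeded every control. The log2 fold change was 1.99 ± 0.49 (adjusted p = 0.00725) and 1.06 (adjusted p = 0.0798) without library 1; in the fit without library 1 and the HF week 3 libraries, 1.06 was called (adjusted p = 0.00987). The summed level of 7 atrial markers was also highest in the 3 libraries with the most Gpx3, though not in the same order, at 81758, 2518 and 2232 FPKM in HF week 5 libraries 1 to 3, 7745 and 14059 FPKM at HF week 3 and 92.99 to 358 FPKM in the controls. Library 2 of Recovery week 9 had an atrial sum of 2441 FPKM, like libraries 2 and 3 of HF week 5, with Gpx3 at 390.2 FPKM. Nppa, an atrial gene that stressed ventricles also switch on, made up 42004, 2099.8 and 2214 FPKM of the HF week 5 sums and was listed at 0 in both HF week 3 libraries. Of the 7 fat cell markers tested, 5 were called higher at HF week 5. The part of atrial or fat tissue in the level of Gpx3 was not tested.

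**Figure D4:**
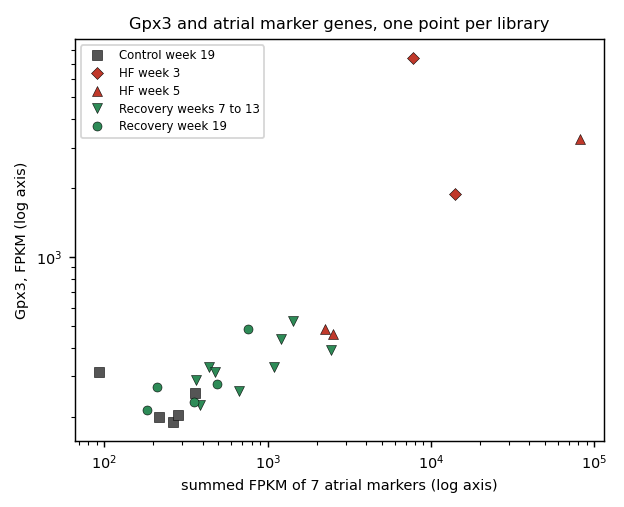
Gpx3 (FPKM, log axis) against the summed FPKM of 7 atrial markers (log axis), one point per library; Nppa, one of the 7, is listed at 0 in both HF week 3 libraries. The 3 libraries with the highest Gpx3 are both HF week 3 libraries and HF week 5 library 1, which also have the 3 highest atrial sums.

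Gpx7 and Prdx4, which remove peroxides in the endoplasmic reticulum where proteins are folded, rose together. Gpx7 was at 10.6, 11.2, 8.74, 10.7 and 14.8 FPKM in the controls and at 24.5, 15.98 and 17.5 FPKM at HF week 5. The groups did not overlap, and Gpx7 stayed called without library 1 (log2 fold change 0.75 ± 0.17 (adjusted p = 0.00411), then 0.57 (adjusted p = 0.0493)). Prdx4 went from 24.4, 25.01, 20.6, 21.7 and 29.8 FPKM to 50.2, 31.5 and 41.2 FPKM, again with no overlap (log2 fold change 0.73 ± 0.18 (adjusted p = 0.00735); 0.57 (adjusted p = 0.0737) without library 1). Cat, the catalase of peroxisomes, fell from 64.6, 67.7, 67.6, 70.2 and 54.1 FPKM to 22.97, 48.3 and 42.9 FPKM. All HF values were below the controls (log2 fold change -0.82 ± 0.23 (adjusted p = 0.0146)), and without library 1 the value was -0.50 (adjusted p = 0.161). In the fit without library 1 and the HF week 3 libraries, -0.50 was called (adjusted p = 0.00356). Sod3, the extracellular superoxide dismutase, was above the controls at 44.3, 35.6 and 35.03 FPKM against 31.2, 33.1, 34.4, 29.4 and 22.5 FPKM, but not called (log2 fold change 0.35 ± 0.15 (adjusted p = 0.1)).

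Hmox1, the heme oxygenase that cells raise under heme and oxidant load, differed widely between libraries of the same group. It was at 10.03, 9.13, 8.18, 8.63 and 10.1 FPKM in the controls, 29.02, 4.71 and 7.36 FPKM at HF week 5 and 22.4, 43.1, 14.3, 31.2 and 10.1 FPKM at Recovery week 19. HF week 5 library 1 was high and the other 2 below the controls, while all 5 Recovery week 19 libraries were above the highest control, library 5 by a narrow margin. Against Control week 19 the log2 fold change at Recovery week 19 was 1.17 ± 0.37, with an unadjusted p of 0.00446 and an adjusted p of 1. Against HF week 5 it was 1.04 ± 0.42 (adjusted p = 0.0799), and without HF week 5 library 1 it was called, at 1.77 (adjusted p = 0.00384). The macrophage marker sum was 409, 826, 486, 554 and 862 FPKM in the same 5 Recovery week 19 libraries; its part in Hmox1 was not tested.

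**Figure D5:**
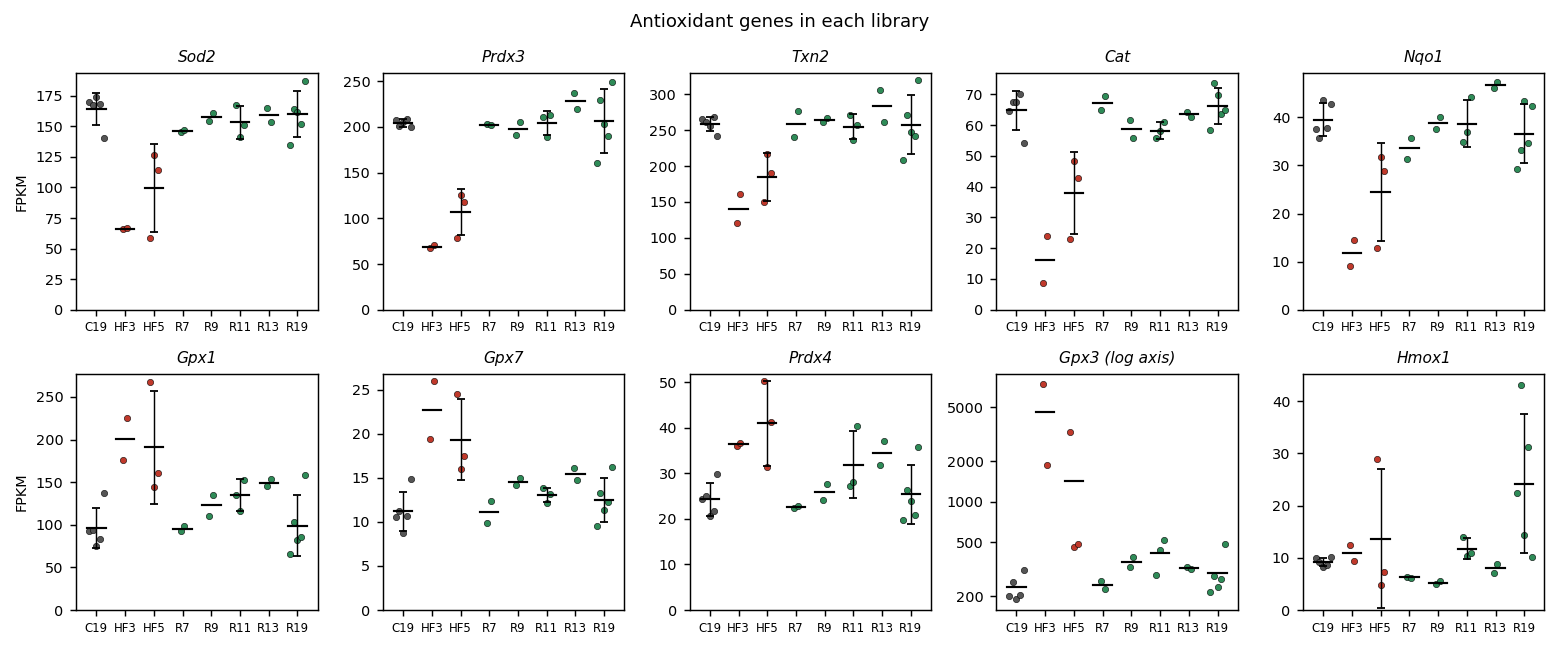
FPKM of 10 antioxidant genes, one point per library, by group (C19, Control week 19; HF3 and HF5, HF weeks 3 and 5; R7 to R19, Recovery weeks 7 to 19); lines are group means, bars 1 SD for groups of 3 or more, and Gpx3 is on a log axis without bars. Sod2, Prdx3, Txn2, Cat and Nqo1 are low and Gpx1, Gpx7, Prdx4 and Gpx3 high at HF weeks 3 and 5, and Hmox1 has its highest mean at Recovery week 19.

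Of the regulators, Nfe2l2 was lower at HF week 5 and Keap1 was not called. Nfe2l2 was at 25.7, 26.6, 25.8, 23.5 and 22.8 FPKM in the controls, 20.5, 16.3 and 19.4 FPKM at HF week 5 and 25.7, 30.1, 20.4, 24.1 and 22.1 FPKM at Recovery week 19. HF and control libraries did not overlap, and the log2 fold change of -0.40 ± 0.12 (adjusted p = 0.019) was -0.47 (adjusted p = 0.0311) without library 1. Keap1, the adaptor that marks NRF2 for breakdown, was at 18.3, 23.2 and 20.1 FPKM against 23.5, 24.2, 23.03, 23.04 and 20.6 FPKM. NRF2 binds the antioxidant response element, whose core was searched for as TGACNNNGC on both strands in promoter windows of 300 bases (250 before the start site and 50 after) from RefSeq, build GRCm38.p6. Windows were there for 27 of the 35 members, and 6 of the 27 (22.2%) held the core in at least one window, against 14.0% of all 27025 genes with windows. The 6 are Gclm and Nfe2l2, which were called at HF week 5, and Prdx1, Sod1, Srxn1 and Txnrd1, which were not; for Srxn1 the match lay after the start site. A match is a description of the letters only.

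To show these cores where they sit before the start site, stretches of the 5 promoters are given 5′ to 3′ on the strand of the gene, with the core in capitals (for Gclm, Prdx1, Sod1 and Txnrd1 it reads on the opposite strand). They lie at chr3:122245403-122245451 on the plus strand for Gclm, chr2:75704875-75704913 on the minus strand for Nfe2l2, chr4:116685446-116685494 on the plus strand for Prdx1, chr16:90220686-90220734 on the plus strand for Sod1 and chr10:82859094-82859142 on the plus strand for Txnrd1, and the cores begin 134, 240, 133, 56 and 92 bases before the start sites.
Gclm: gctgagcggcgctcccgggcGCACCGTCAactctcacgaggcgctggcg
Nfe2l2: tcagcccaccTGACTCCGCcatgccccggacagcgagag
Prdx1: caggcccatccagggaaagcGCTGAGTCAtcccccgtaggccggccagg
Sod1: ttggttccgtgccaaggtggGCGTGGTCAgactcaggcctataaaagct
Txnrd1: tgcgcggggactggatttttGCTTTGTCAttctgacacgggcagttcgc
No core was found in the windows of the remaining members, among them Nqo1, Gpx3, Gpx1, Prdx3 and Cat. Sequence outside the windows was not searched.

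After recovery, the 14 members called at HF week 5 were all called at Recovery week 19 against HF week 5 with the opposite sign, 8 higher and 6 lower, beside 12.3% and 12% of all genes. Both comparisons share the HF week 5 libraries, so the values are set side by side only. Gpx3 was 3.19-fold lower than at HF week 5 (log2 fold change -1.67 ± 0.49 (adjusted p = 0.0192)), Gpx1 1.94-fold and Prdx4 1.61-fold lower. Prdx3 was 1.94-fold, Cat 1.81-fold, Maob 1.76-fold and Gclm 1.60-fold higher. Without HF week 5 library 1, 6 members were called higher (Maob, Sod2, Prdx3, Gclm, Nfe2l2 and, in addition, Hmox1) and 0 lower, and the 6 lower members then had adjusted p-values from 0.0814 (Gpx1) to 0.214 (Gpx3). The log2 fold change of Gpx3 was then -0.74 and that of Prdx4 -0.53, and Cat stood at 0.53 (adjusted p = 0.129). Of all genes, 6.9% were then higher and 5.27% lower. In the fit without the HF week 3 libraries as well, 9 members were higher, the same 6 with Cat (adjusted p = 0.00224), Txnrd1 and Xdh, and 0 lower, beside 11.9% and 10.3% of all genes.

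Set against Control week 19, 0 of the 33 members were called at Recovery week 19 in either direction, beside 0.0235% of all genes called higher and 0.0% lower. Of the 3 genes called higher, 2 are cardiomyocyte markers, a list that holds genes shown at 0 in all control libraries. At an unadjusted p under 0.05, 2 were higher, Hmox1 and Xdh, and 0 lower, beside 2.01% and 0.862% of all genes. Xdh was at 31.2, 28.9, 27.1, 35.9 and 22.98 FPKM against 16.2, 19.9, 17.7, 21.3 and 24.1 FPKM, with library 5 inside the control range (log2 fold change 0.55 ± 0.18, unadjusted p = 0.00785, adjusted p = 1). For the 14 members that had been called at HF week 5, the log2 fold changes of recovered against control hearts lay between -0.12 (Nqo1, SE 0.19) and 0.31 (Gpx3, SE 0.43); differences within these errors were not detectable with 5 libraries a group.

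At Recovery week 7, 2 weeks after withdrawal, 4 members were called higher than at HF week 5 (Maob, Cat, Prdx3 and Gclm) and 6 lower (Ncf4, Sod1, Gpx1, Gpx3, Gpx7 and Prdx4), beside 8.05% and 6.75% of all genes (9.09% and 4.87% with median centring). With only these 2 groups in the fit, 0 members were called in either direction, beside 1.38% and 1.09% of all genes, with the log2 fold change of Prdx3 at 0.95 (adjusted p = 0.084) and that of Maob at 0.71 (adjusted p = 0.0862). Prdx3 was at 203 and 202 FPKM and Gpx3 at 259 and 225 FPKM in the 2 libraries, next to their control levels. Cat was at 64.8 and 69.5 FPKM, Maob at 19.4 and 21.5 FPKM and Prdx4 at 22.4 and 22.8 FPKM. Sod1, which was not called at HF week 5 against the controls, was at 630.4 and 782 FPKM, with both libraries below the control range (log2 fold change against HF week 5 -0.56 ± 0.18 (adjusted p = 0.0464)). Sod2 (145 and 147 FPKM) missed the threshold (log2 fold change 0.62 ± 0.21 (adjusted p = 0.0558)). Without HF week 5 library 1, 2 members were called higher (Maob and Prdx3) and 0 lower, beside 4.1% and 2.42% of all genes. In the fit without the HF week 3 libraries as well, 4 were higher (Maob, Cat, Prdx3 and Gclm) and 3 lower (Cybb, Sod1 and Gpx3), beside 8.52% and 6.65%. Leaving out either Recovery week 7 library gave 2 higher and 0 lower, beside 2.48% and 1.1% of all genes without library 1 and 1.83% and 1.14% without library 2.

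Over Recovery weeks 7 to 13, taken as the mean of the 4 group means, 0 members were called against Control week 19, beside 0.0549% of all genes called higher and 0.0157% lower. Of the 7 genes called higher, 3 are cardiomyocyte markers. At an unadjusted p under 0.05, Gpx1 was higher (log2 fold change 0.39 ± 0.18, unadjusted p = 0.04995) and Maob lower (-0.18 ± 0.08, unadjusted p = 0.0337), beside 3.36% and 3.53% of all genes. Gpx1 was at 145 and 154 FPKM at week 13, above all control libraries, and Maob was lowest at week 9, at 17.3 and 16.3 FPKM. Cybb and Cyba at week 13 also exceeded all control libraries, with the macrophage sum given above.

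At HF week 3, 8 members (24.2% of the 33) were called higher than in Control week 19 and 11 (33.3%) lower, shares that stand near the 23.1% and 27.6% of all genes. Higher were the phagocyte oxidase subunits Cyba, Ncf1 and Ncf4 and the enzymes Sod3, Gpx1, Gpx3, Gpx7 and Prdx4. Lower were Maob, the mitochondrial Sod2, Prdx3, Txn2 and Txnrd2, the cytosolic Prdx1, Prdx6 and Nqo1, Cat and both regulators. Gpx3 was at 7430.4 and 1887 FPKM (log2 fold change 4.04 ± 0.57 (adjusted p = 1.73e-05)). Cat was at 8.62 and 23.8 FPKM and Nqo1 at 9.17 and 14.4 FPKM, log2 fold changes of -2.13 ± 0.27 (adjusted p = 4.69e-06) and -1.73 ± 0.25 (adjusted p = 1.93e-05). Sod2 and Prdx3 gave like values in both libraries, 65.8 and 66.97 FPKM and 67.1 and 70.9 FPKM. In contrast, Txnrd2 was at 3.36 and 35.2 FPKM, Ncf1 at 14.5 and 4.46 FPKM, Keap1 at 9.10 and 19.1 FPKM and Cybb at 0 and 1.42 FPKM, so that library 1 set their means. The 0 of Cybb may be a failed estimate and not a measured level, since the table lists Myh6, Myl2 and Actc1 at 0 in all control hearts and library 1 has fewer genes above 0 than any other library. Without library 1 of HF week 3, 6 members were called higher and 9 lower, beside 14.5% and 15.6% of all genes. Txnrd2 (log2 fold change -0.31, adjusted p = 0.341, with both -1.91), Keap1 (-0.25, adjusted p = 0.163, with both -0.77), Ncf1 (0.89, adjusted p = 0.0573, with both 1.68), Cyba (0.52, adjusted p = 0.147, with both 0.70) and Prdx1 (-0.34, adjusted p = 0.323, with both -0.65) were no longer called. Prdx4 lost its call at nearly the same value (0.59, adjusted p = 0.110, with both 0.58), and Txnrd1 (log2 fold change -0.60, adjusted p = 0.00256) and Xdh (0.76, adjusted p = 0.0212) became called. Without library 2 instead, 7 members were called higher and 11 lower, beside 27.3% and 35.6% of all genes. Txnrd1 was then called higher, at 0.50 (adjusted p = 0.00291), and Cybb lower, at -1.50 (adjusted p = 4.90e-05), a value that rests on the single 0 of library 1; without that library Cybb stood at 0.44. Sod3 (0.39, adjusted p = 0.108, with both 0.65) lost its call, as did Prdx4 (0.57, adjusted p = 0.0767) and Prdx6 (-0.46, adjusted p = 0.0933, with both -0.56) at values closer to those with both.

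Set directly against HF week 5, 2 members were higher at HF week 3 (Ncf1 and Gpx3) and 7 lower (Cybb, Maob, Cat, Prdx3, Txnrd2, Nqo1 and Keap1), beside 8.28% and 13.1% of all genes; the call of Cybb rests on the 0 of library 1. With only these 2 groups in the fit, 0 members were called, beside 0.0458% and 0.0153% of all genes. Maob, at 6.14 and 6.63 FPKM, differed by -0.89 ± 0.13 (adjusted p = 3.85e-04) on the log2 scale and Prdx3 by -0.60 ± 0.17 (adjusted p = 0.0252). Without library 1 of HF week 3, 0 members were higher and Maob alone was lower (-0.84, adjusted p = 0.009), beside 0.865% and 0.44% of all genes. Prdx3 then had nearly the same value without a call (-0.56, adjusted p = 0.293), while Cat (-0.60), Gpx3 (1.06) and Txnrd2 (-0.29) had smaller ones than with both libraries. Without library 2 of HF week 3, 4 were higher and 11 lower (21.3% and 31.7% of all genes), and without library 1 of HF week 5, 2 and 10 (9.33% and 14.4%). Leaving out library 2 or library 3 of HF week 5 gave 0 higher in each case, with 2 lower (3.11% and 4.4% of all genes) without library 2 and 3 lower (4.23% and 6.32%) without library 3. This comparison was added after the values were seen.

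Lists of further genes that work with the members were taken along. Of 17 NADPH oxidase partners and further oxidases in the table, 9 were tested, and at HF week 5 the amine oxidase Aoc3 (log2 fold change 0.82 ± 0.18, adjusted p = 0.00378) and the collagen crosslinking oxidase Lox (0.57 ± 0.20, adjusted p = 0.0409) were higher and Poldip2, a partner of Nox4 and of mitochondrial proteins, lower (-0.77 ± 0.15, adjusted p = 0.00126). Of 26 tested genes of glutathione synthesis and use, 2 were higher (Gstt2 and Gpx8) and 3 lower (Gsto1, Glrx5 and Gsta4). Of 15 tested genes of thioredoxin and methionine sulfoxide reduction, 1 was higher (Nxn) and 6 lower, among them Txnl1 (-0.52 ± 0.16, adjusted p = 0.0252). The median log2 fold changes of these 3 lists were 0.46, -0.13 and -0.35, beside 0.04 over all genes, and their counts stand beside the 11.6% of all genes called higher and 12.4% called lower.

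Genes that supply the NADPH on which oxidases and reductases both draw changed in both directions at HF week 5, 2 of 15 higher and 4 lower beside 11.6% and 12.4% of all genes; the median of their log2 fold changes was -0.11. Nnt, the transhydrogenase that makes NADPH in mitochondria, was at 190.4 ± 16.3 FPKM in the control libraries, 90.6 ± 41.5 at HF week 5 and 183 ± 11.2 at Recovery week 19. It fell (log2 fold change -1.19 ± 0.23, adjusted p = 0.00156), as did the malic enzymes Me3 of mitochondria (-0.85 ± 0.15) and Me1 of the cytosol (-0.80 ± 0.14), whereas Tkt, the transketolase of the pentose phosphate path (0.65 ± 0.12), and Aldh1l1, which makes NADPH from folates (0.75 ± 0.17), rose. Of 11 tested NRF2 partners 0 were higher and 1 lower (Nfe2l1, -0.51 ± 0.13), and of 16 further NRF2 target genes 2 were higher (Akr1b8 and Ephx1) and 1 lower (Fech), against the same shares of all genes. Of the 25 genes called in these 6 lists, 13 were still called without HF week 5 library 1, among them Aoc3 (0.72), Poldip2 (-0.59), Gstt2, Gsta4, Ephx1, Fech and all 6 of NADPH supply, Nnt at -0.75 (adjusted p = 0.0128). Among those no longer called were Lox (0.28, adjusted p = 0.36), Gpx8 (0.34), Gsto1 (-0.31, adjusted p = 0.346), Glrx5 (-0.43), Nxn (0.42), Txnl1 (-0.48, adjusted p = 0.104), Msrb3 (-0.48), Sesn2 (-0.53), Nfe2l1 (-0.29) and Akr1b8 (0.50). In the fit without the HF week 3 libraries as well, 19 of the 25 were called, Txnl1 (adjusted p = 0.00365), Nxn (0.0312), Glrx5 (0.0343) and Nfe2l1 (0.0353) among them. Lox, Gpx8, Gsto1, Sesn2 and Akr1b8 were among those not called. In the 6 lists, 0 genes were called at Recovery week 19 against Control week 19, beside 0.0235% of all genes called higher and 0.0% lower.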

How the data were processed

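The authors ran TopHat on paired-end reads of poly(A) RNA against mouse build MGSCv37 and deposited FPKM that Cuffdiff computed for each library and 29955 gene symbols; the annotation, the strand of the libraries and any scaling between libraries are not given in the sources used here. No read was processed again, and depth is known only as the relative depth read from steps in low values. Column names give the group and its week. The week 5 controls have 5 columns but 4 labelled samples, so these 5 were left out, and for Recovery week 9 there are 2 columns but 3 labels.

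Genes that averaged 0.5 FPKM or more were fitted as log2(FPKM + 0.5) with limma 3.58.1 in R 4.3.3, one mean for each of 8 groups over 24 libraries (16 residual degrees of freedom), eBayes with a trend and without robust estimation; tests were two-sided with Benjamini-Hochberg adjustment over all genes tested. Fold changes on this scale understate those of low genes. Nox4 and Duox1 were tested with exact permutation tests in scipy 1.17.1. The fit was tested on simulated data first. The members, gene lists and comparisons were chosen with earlier results of these data known. Called members, phagocyte subunits, Nox4, superoxide dismutases and catalase are given by library; Hmox1, Xdh, Txnrd1, Txnrd2, Prdx5, Prdx6, Gpx4 and Keap1 are too, chosen after their values were seen. Of each further list at most 3 genes in each direction are named. Marker lists whose calls are not given above moved as follows at HF week 5: endothelial 5 of 10 higher and 0 lower, smooth muscle 3 of 6 higher and 1 lower, erythroid 0 of 3. Alternatives changed the pseudocount, the filter, the scaling, the libraries in the fit and the threshold.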

Additional observations from a re-analysis of the deposited data

Results flagged for a closer look

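In groups of 5 libraries, 70 sets of member values were checked for a library far from the others, and 6 were found, where chance alone flags about 1 in 20. Library 5 of Control week 19 was the lowest for Sod2, at 140.8 FPKM, and the highest for Gpx4 (2157 FPKM), Prdx1 (296 FPKM) and Txn1 (117 FPKM). Library 5 of Recovery week 19 was the highest for Gpx3, at 485 FPKM, and library 1 of that group the lowest for Gsr, at 7.14 FPKM. The summed FPKM of all genes was 900360.3 in control library 5, against 690899 to 770599 in the other 4 controls, 1011547 in Recovery week 19 library 5 and 618138 in library 1.

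The difference from Control week 19 was not the same at HF week 3 and HF week 5 for 9 members (limma, difference between the time points, adjusted p under 0.05). The controls cancel, so this is the comparison of HF week 3 with HF week 5 given above, with 8.28% of all genes called higher and 13.1% lower. With only these 2 groups in the fit none of the 9 calls remained, beside 0.0458% and 0.0153% of all genes. As the log2 difference at HF week 3 minus that at HF week 5, the values were -1.16 for Cybb (adjusted p = 0.0295), 1.30 for Ncf1 (0.0219), -0.89 for Maob (3.85e-04), -1.30 for Cat (0.00798) and 2.05 for Gpx3 (0.028). They were -0.60 for Prdx3 (0.0252), -1.90 for Txnrd2 (0.0181), -0.95 for Nqo1 (0.0226) and -0.61 for Keap1 (0.0315). For Cybb, Txnrd2 and Keap1 the low value was that of HF week 3 library 1 (0 and 1.42 FPKM, 3.36 and 35.2 FPKM and 9.10 and 19.1 FPKM in libraries 1 and 2), and for Ncf1 the high one was (14.5 and 4.46 FPKM), whereas Maob and Prdx3 had like values in both HF week 3 libraries. Without HF week 3 library 1, the difference of Maob (-0.84, adjusted p = 0.009) was the only one of the 9 still called; that of Prdx3 was nearly as large as with both (-0.56, adjusted p = 0.293), and that of Cybb rests on the 0 in library 1, which may not be a measured level.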

How the results depend on the processing

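The calls of members at HF week 5 rested in part on library 1 of that group. With one library left out at a time, 1 to 6 members were higher and 4 to 9 lower at HF week 5 against Control week 19, 6 to 9 higher and 0 to 6 lower at Recovery week 19 against HF week 5, 2 to 6 higher and 0 to 5 lower at Recovery week 7 against HF week 5, 6 to 8 higher and 9 to 11 lower at HF week 3 against control, and 0 to 4 higher and 1 to 11 lower at HF week 3 against HF week 5; Recovery week 19 and Recovery weeks 7 to 13 against control stayed at 0. The shares of all genes called higher and lower ranged with them, over 4.21% to 14.2% and 6.45% to 14.4%, 6.9% to 12.7% and 5.27% to 12.8%, 1.83% to 8.96% and 1.1% to 7.94%, 14.5% to 27.3% and 15.6% to 35.6%, and 0.865% to 21.3% and 0.44% to 31.7% in the order of the first 5 comparisons. The lone library left in a group of 2 was assumed to vary like the other groups. In a fit without HF week 5 library 1 and the HF week 3 libraries, added after the data were seen, 3 members were higher at HF week 5 against control (8.86% of all genes), 0 lower at Recovery week 19 against HF week 5 (10.3%) and 3 lower at Recovery week 7 (6.65%). With only the groups compared in the fit, Recovery week 19 had 5 members higher than HF week 5 (10.1% of all genes), and Recovery week 7, like HF week 3 against HF week 5, had 0 higher and 0 lower. With no filter on low values, 1 member was higher at HF week 3 than at HF week 5 (4.45% of all genes). Median centring left 3 lower at Recovery week 7 (4.87%). At an unadjusted p under 0.05, Recovery week 7 had 7 higher and 10 lower (14.4% and 15.4% of all genes), Recovery week 19 against control 2 higher, and Recovery weeks 7 to 13 against control 1 higher and 1 lower. Txnrd1 at HF week 3 had a log2 fold change of 0.50 without HF week 3 library 2, the reverse of the sign with both, and of -0.60 without library 1. Over single members and alternatives, 3372 values kept their direction and side of the threshold, 177 changed sign and were called neither way, 54 became called, 151 lost the call and 1 reversed; of the values of the 25 list genes 366 kept and 57 lost their call. The causes were not tested. Other scalings moved the median of all genes by up to 0.07 on the log2 scale. No paired analysis was possible because the columns are numbered within each group and link to no labelled mouse. Values near 0.5 FPKM, such as those of Cybb, Maoa and Nox4, are limited by depth, and the groups of 2 and 3 libraries limit what could be called.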
